A study of Mus musculus with 4 samples.

Results

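The Hox cluster genes of the mouse were examined in fetal lungs at E18.5, shortly before birth. They are the transcription factor genes of the HoxA, HoxB, HoxC and HoxD clusters, and were chosen as every non-control probe whose deposited gene name is Hox, a cluster letter from a to d and a paralogue number. This gave 50 probes for 38 genes, of 41174 probes and 27745 gene names on the array, and the 50 probes took up 59 of the 43379 non-control spots because the Hoxb1 probe is printed 10 times. The tested lungs were Fgf8 hypomorphs, given in the labels as Fgf8H/-, that is 1 allele with reduced function over 1 null allele of the gene for fibroblast growth factor 8, and they were set against Fgf8+/+ wild type littermates. Both genotypes shared a mixed strain background that the labels write c57nl7/sv129. The sample titles call the mutant AP/N, which is not explained in the labels. Each of 4 two-colour Agilent arrays compared 1 pool of 3 hypomorph lungs, labelled with Cy5, with 1 pool of 3 wild type lungs, labelled with Cy3, after the lobes had been cut away from the large airways and vessels. The dyes were never exchanged between genotypes, so a dye effect of a probe and a genotype effect cannot be told apart. The hypomorph allele acts in every tissue that uses Fgf8, so effects that arise in the lung and effects that reach it from elsewhere cannot be told apart either.

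Hox proteins bind DNA through a homeodomain, usually together with cofactors of the Pbx and Meis families, and give cells along the head to tail axis their regional identity. Within a cluster the genes lie in the order in which they are used: low paralogue numbers, at the 3′ end, are switched on early and towards the head, and high numbers late and towards the tail. Genes with the same number in different clusters are paralogues that arose by cluster duplication and share much of their function. In the mouse lung, Hox genes of the middle groups are expressed mainly in the mesenchyme, and loss of Hoxa5, alone or with its paralogues, disturbs branching and alveolar formation.

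Signal reached well above background, by the scanner software's own measure, at 32731 to 34519 spots per array in hypomorph pools and at 32491 to 33744 spots in wild type pools. Spike-in controls gave slopes of observed on expected log ratios between 0.690 and 0.718, so the ratios below are compressed. Fgf8 itself, the gene whose dose was lowered, had log2 ratios of hypomorph over wild type of -0.31, -0.23, -0.09 and -0.09 on arrays 1 to 4, all below 0 but not past the test (mean -0.18 ± 0.11, SD, n = 4, limma adjusted p = 0.0572). Of the lung markers examined, all 13 epithelial and all 14 mesenchymal genes were well above background in every pool. Changes here are per pool of whole lobes, in which fewer cells of a type and less RNA per cell cannot be told apart.

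Which Hox genes were measurable differed with the position in the cluster and between clusters. Of the 38 genes, 20 were well above background in all 8 pools, 13 were in none, and 5 were in some. All 20 belonged to paralogue groups 1 to 9, where they made up 20 of 27 genes. In groups 10 to 13, the group of genes used towards the tail, 0 of 11 genes were above background in all pools and 9 were in none. Among the HoxA genes on in every pool were Hoxa2 to Hoxa7 and Hoxa9, and the 8 HoxB genes were Hoxb2 to Hoxb9. HoxC contributed Hoxc4 and Hoxc5, and HoxD contributed Hoxd4 and Hoxd8. Within groups 1 to 9 these were 8 of 9 HoxB genes, but only 2 of 5 HoxC genes and 2 of 5 HoxD genes.

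The remaining genes were near the limit of the array. Hoxd9 was above background in 5 pools, Hoxd11 in 4, Hoxd10 in 3, Hoxc9 in 2 and Hoxd3 in 1. The 13 genes above background in no pool were Hoxa10, Hoxa11, Hoxa13, Hoxb1, Hoxb13, Hoxc6, Hoxc8, Hoxc10, Hoxc12, Hoxc13, Hoxd1, Hoxd12 and Hoxd13. For these, no ratio is given, and a difference between genotypes was not detectable at this signal.

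**Figure D1:**
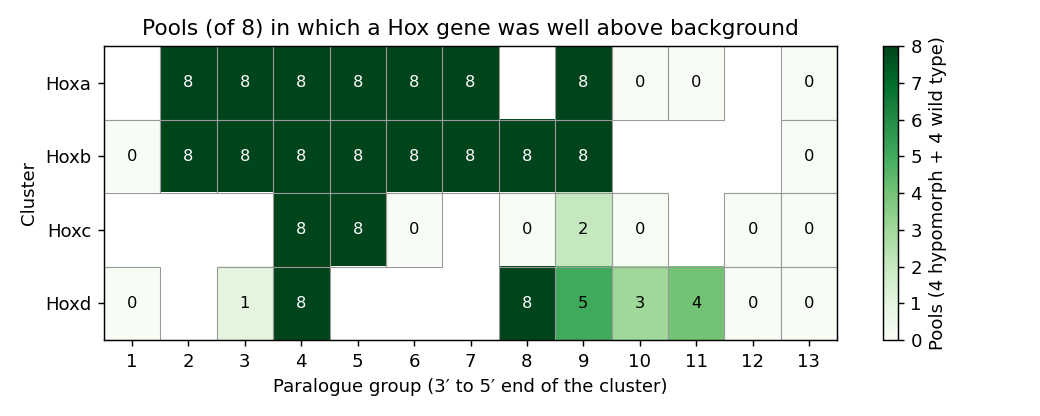
Number of pools, of 4 hypomorph and 4 wild type pools, in which at least 1 probe of a Hox gene was well above background. Rows are the 4 clusters, columns the paralogue groups 1 to 13 (3′ to 5′), and blank squares have no gene shown; the genes at 8 pools all lie in groups 1 to 9.

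Only probes with signal above background in either genotype on 3 or more arrays were tested, which left 26 Hox probes of 20 genes. At a Benjamini-Hochberg adjusted p under 0.05 in limma over all 29991 probes tested, 6 of the 26 were higher in hypomorph lungs, 3 were lower and 17 were not called. The share called in either direction was 34.6%, beside 24.9% of all probes; 23.1% of the Hox probes were higher, beside 12.7% of all probes, and 11.5% were lower, beside 12.2%. With 26 probes, of which several report the same gene, these shares lie near the background and are not read as a property of Hox genes. By the brightest probe of each gene, 4 of 20 genes were higher and 3 lower, where 13.6% and 13.0% of all genes on the array were.

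The calls touched 8 genes. Higher were Hoxa4, Hoxa5, Hoxb3, Hoxb9 and Hoxc4. Lower were Hoxb2, Hoxb4 and Hoxd4. Hoxb3 was called by its dimmer probe only, and its brighter probe had a mean of -0.16 and was not called. A further Hoxb9 probe is among the 6 but passed the filter only through the hypomorph pools, and it is not used as support for Hoxb9. The changes were small, between 1.12-fold for Hoxb3 and 1.42-fold for Hoxb9. The median log2 ratio of the 26 probes was 0.06, and on arrays 1 to 4 it was 0.07, 0.03, 0.08 and 0.08, beside -0.00 for all probes tested. In size regardless of sign, the median was 0.16 for Hox probes and 0.12 for all probes. The signals of hypomorph pools and wild type pools did not overlap for 4 of 26 Hox probes (15.4%), that Hoxb9 probe among them, against 15.5% of all probes. All 4 arrays gave the same sign for 12 of the 25 Hox probes with 4 values (48%), against 50.3% of all such probes.

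**Figure D2:**
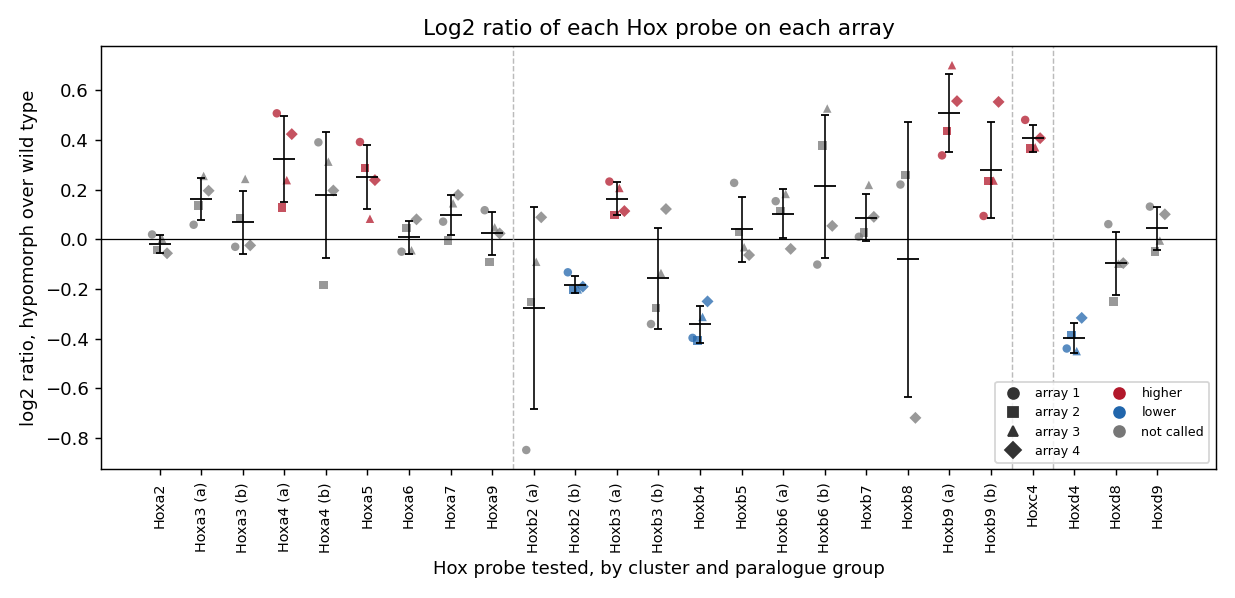
Log2 ratio of hypomorph over wild type for Hox probes tested, by cluster and paralogue group; points are the 4 arrays, horizontal lines the mean and bars the SD, and (a) and (b) are different probes of 1 gene. Red probes were called higher, blue probes lower; Hoxc4 and Hoxb9 (a) lie above 0 on every array, Hoxb4, Hoxd4 and Hoxb2 (b) below 0 on every array, and Hoxb8 has 3 values.

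Paralogue group 4 was the only group tested in all 4 clusters, and its members did not move together. Hoxa4 and Hoxc4 were higher in hypomorph lungs, and Hoxb4 and Hoxd4 were lower. The genes encode closely related homeodomain proteins that pattern the neck and upper trunk. Their promoters are shown because these near relatives gave opposite signs; each runs from 250 bases before to 50 bases after the annotated start, 5′ to 3′ on the plus strand, from RefSeq (build GRCm38.p6). They lie at chr15:103034145-103034444 for Hoxc4, chr11:96318017-96318316 for Hoxb4 and chr2:74721728-74722027 for Hoxd4, and Hoxa4 had no entry. Capitals mark matches, on either strand, to the motifs described after the sequences.
Hoxc4: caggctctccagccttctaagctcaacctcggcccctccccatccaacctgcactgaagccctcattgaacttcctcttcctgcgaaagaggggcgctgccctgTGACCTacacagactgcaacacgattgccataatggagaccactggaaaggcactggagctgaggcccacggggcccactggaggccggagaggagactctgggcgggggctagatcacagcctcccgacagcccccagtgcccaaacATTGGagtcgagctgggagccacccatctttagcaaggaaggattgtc
Hoxb4: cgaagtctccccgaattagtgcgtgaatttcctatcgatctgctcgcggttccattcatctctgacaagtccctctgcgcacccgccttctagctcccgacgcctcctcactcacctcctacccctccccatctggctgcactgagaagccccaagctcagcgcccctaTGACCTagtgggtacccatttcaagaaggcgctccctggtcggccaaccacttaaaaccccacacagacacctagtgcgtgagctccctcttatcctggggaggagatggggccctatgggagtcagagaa
Hoxd4: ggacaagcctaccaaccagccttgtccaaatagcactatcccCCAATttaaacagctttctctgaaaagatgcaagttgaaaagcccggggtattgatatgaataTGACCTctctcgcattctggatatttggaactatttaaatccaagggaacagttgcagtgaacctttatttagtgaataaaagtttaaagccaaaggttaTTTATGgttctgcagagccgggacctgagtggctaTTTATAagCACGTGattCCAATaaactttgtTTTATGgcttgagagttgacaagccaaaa

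The motifs searched on both strands were AGGTCA (an element bound by retinoic acid receptors), TTTATG (Cdx proteins), TGATNNAT (Hox with Pbx), CCAAT (the CCAAT box), TATAAA (the TATA box) and CACGTG (an E-box). All 3 promoters hold AGGTCA, read on the opposite strand as TGACCT, and this motif was in 7 of the 24 Hox promoter entries, which cover 22 of the 38 genes, and in 16.3% of all 32851 promoters. Hoxb4 has that match alone. Hoxc4 has 2 matches in all and Hoxd4 has 7. The Hoxd4 window is the poorest in G and C, at 39.7% with 4 CpG, against 58% with 14 CpG for Hoxb4 and 60.3% with 9 CpG for Hoxc4; the median was 57.7% over the Hox entries and 52.7% over all promoters. TTTATG was in 5 of the 24 Hox entries and 11.8% of all promoters, TGATNNAT in 4 and 8.85%, CCAAT in 15 and 37.4%, TATAAA in 4 and 13.6%, and CACGTG in 5 and 7.15%. The AGGTCA match is thus present beside both a higher and 2 lower genes, and a match is a string of letters and not a measured site.

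Hoxc4 had normalised log2 signals of 9.36, 8.16, 8.84 and 8.71 in hypomorph pools and 8.88, 7.80, 8.47 and 8.30 in wild type pools of arrays 1 to 4. The level varied more between arrays than between genotypes, so the ranges overlapped, but the hypomorph pool was higher on every array. The within-array log2 ratios of 0.48, 0.37, 0.37 and 0.41 gave a mean of 0.41 ± 0.05 (SD, n = 4), a 1.33-fold higher level (limma adjusted p = 0.00338). The probe lies on chromosome 15 at 102864144 to 102864186 in build mm8, the build of the array's design. An annotation of that build was not used here, so exons and UTRs under the probes are not stated.

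Hoxd4 had log2 signals of 8.24, 8.53, 8.39 and 8.09 in hypomorph pools and 8.68, 8.91, 8.84 and 8.41 in wild type pools. The hypomorph pool was lower on all arrays, although the ranges overlapped. Its ratios were -0.44, -0.39, -0.45 and -0.32, with a mean of -0.40 ± 0.06 (SD, n = 4), 1.32-fold lower (limma adjusted p = 0.00382). The probe lies on chromosome 2 at 74529648 to 74529707 (mm8).

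Hoxb4, which is also used in blood stem cells, had log2 signals of 9.47, 9.58, 9.63 and 9.71 in hypomorph pools and 9.87, 9.99, 9.94 and 9.96 in wild type pools. Every hypomorph pool was below every wild type pool. The ratios of -0.40, -0.41, -0.31 and -0.25 averaged -0.34 ± 0.07 (SD, n = 4), 1.27-fold lower (limma adjusted p = 0.00665), with the probe on chromosome 11 at 96136297 to 96136356 (mm8). The call missed the threshold without array 2 (ratio -0.32, limma adjusted p = 0.0502), and the ratio was -0.20, still called, with centring on the array median alone. Beside the lower Hoxb4, the blood progenitor list gave 1 gene higher and 2 lower of 8 tested, 8 of its 9 genes being above background in all pools; its part in the result was not tested.

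Hoxa4 had 2 probes. The probe on chromosome 6 at 52119380 to 52119439 (mm8) had log2 signals of 10.04, 9.41, 9.91 and 10.00 in hypomorph pools and 9.53, 9.28, 9.67 and 9.58 in wild type pools, overlapping because both pools of array 2 were dim. Its ratios were 0.51, 0.13, 0.24 and 0.42, all above 0 and unequal in size, with a mean of 0.32 ± 0.17 (SD, n = 4, 1.25-fold, limma adjusted p = 0.0241). The other probe, at 52120179 to 52120238, gave 0.39, -0.18, 0.31 and 0.20 and was not called (mean 0.18 ± 0.25, adjusted p = 0.206 in limma). The higher Hoxa4 therefore rests on 1 of 2 probes, and it was not called without array 2, 3 or 4, where limma gave adjusted p values of 0.0513, 0.068 and 0.0764, nor with its probes averaged (0.25, adjusted p = 0.0658).

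**Figure D3:**
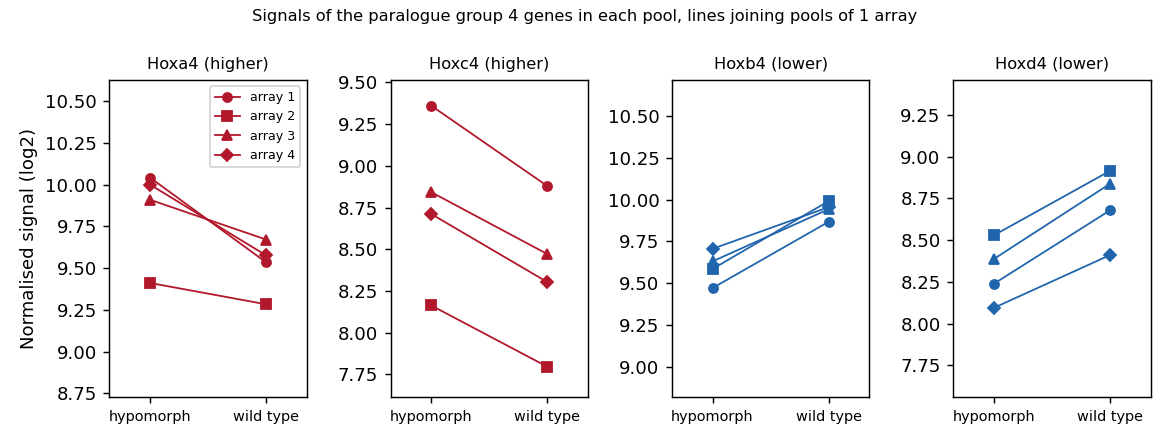
Normalised log2 signal of the paralogue group 4 probes (Hoxa4 by its called probe) in hypomorph pools and wild type pools, with a line joining the pools of each array; panels have their own level but the same height of scale. All lines of Hoxa4 and Hoxc4 are higher at the hypomorph end, and all lines of Hoxb4 and Hoxd4 are lower there.

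The gaps within group 4 are given as differences of ratios within each array, with exact two-sided sign-flip tests over 6 pairs of genes. The genes of each unlike pair lay on opposite sides of 0 on every array, as shown above. The sign and exact p of such a pair were therefore fixed in advance and add no support to the calls. Between Hoxc4 and Hoxd4 the log2 ratios differed by 0.92, 0.75, 0.82 and 0.72 on arrays 1 to 4, the same way on each (mean 0.80 ± 0.09, SD, n = 4). The mean difference was 0.75 ± 0.10 for Hoxc4 minus Hoxb4, 0.67 ± 0.17 for Hoxa4 minus Hoxb4 and 0.72 ± 0.18 for Hoxa4 minus Hoxd4, again with 1 sign on all arrays. Each of these 4 pairs reached the smallest exact p that 4 arrays allow, 0.125, which is 0.188 after adjustment over the 6 pairs, so this design cannot pass the threshold. For the pairs of like sign, Hoxa4 minus Hoxc4 was -0.08 ± 0.13 (exact p = 0.5) and Hoxb4 minus Hoxd4 was 0.06 ± 0.07 (exact p = 0.25). Probes of like brightness, within 0.25 log2 units, had median ratios of -0.01 around Hoxc4, Hoxb4 and Hoxd4. The normalisation itself (loess) centres ratios near 0 at each brightness, so these medians are no check of it or of the opposite signs.

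In paralogue group 5, the group best known for lung development, Hoxa5 was higher and Hoxb5 did not pass the test. Hoxa5, which is needed in mouse lung mesenchyme for normal airway and alveolar growth, had log2 signals of 12.77, 12.48, 12.58 and 12.66 in hypomorph pools and 12.38, 12.20, 12.49 and 12.42 in wild type pools. The hypomorph pool was higher on every array, least on array 3, and the ranges overlapped at their edges. The ratios of 0.39, 0.29, 0.08 and 0.24 averaged 0.25 ± 0.13 (SD, n = 4), 1.19-fold higher (limma adjusted p = 0.0293; chromosome 6, 52131633 to 52131692, mm8). The call was lost without array 2 (0.24) or array 4 (0.25), at adjusted p of 0.123 and 0.0765 in limma, and with the processed signals or the series table (0.25, adjusted p = 0.0654 for each). With centring on the array median alone the ratio was 0.50 and was called. Hoxb5, a paralogue that acts with Hoxa5 in mouse lung branching, gave 0.23, 0.03, -0.03 and -0.06 (mean 0.04 ± 0.13, limma adjusted p = 0.638), so array 1 stood above the other arrays. With centring alone Hoxb5 was at 0.25 and was called higher (limma adjusted p = 0.0275).

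Hoxc5 had the largest ratio among the Hox probes above background but was not tested, because the scanner software marked its spot as non-uniform in Cy5 on arrays 1, 2 and 4 and also in Cy3 on array 2. The raw mean signals were 3421, 2350, 1593 and 1574 in hypomorph pools and 794, 521, 372 and 390 in wild type pools. Every hypomorph value was above every wild type value, but raw signals are not balanced between the dyes. A Hoxd13 probe, above background in no pool, also read higher in Cy5 (60 to 69) than in Cy3 (42 to 51). The order of the raw values therefore does not tell genotype from dye. With the marked spots kept, the log2 ratios were 1.19, 1.60, 1.56 and 1.30, with a mean of 1.41 ± 0.20 (SD, n = 4), a 2.66-fold higher level (limma adjusted p = 8.50e-04). Among the 31354 probes of that setting, 9 had a ratio at or above it, Hoxc5 itself included. In size regardless of sign, 21 were at or beyond it. The unmarked spot of array 3 alone gave 1.56, and the deposited series table has a value on that array only, 1.73 on the log2 scale. The probe lies at 102844572 to 102844631 on chromosome 15 (mm8), in the cluster that also holds the higher Hoxc4. Since the dyes were not exchanged, a Cy5 artefact at this spot and a genotype difference cannot be told apart.

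In group 6, Hoxa6 and both Hoxb6 probes were not called. Hoxa6 gave ratios of -0.05, 0.05, -0.04 and 0.08 (mean 0.01 ± 0.07, limma adjusted p = 0.906), with values on either side of 0. The Hoxb6 probe at 96117339 gave 0.15, 0.11, 0.18 and -0.04 (mean 0.10 ± 0.10, adjusted p = 0.182 in limma). The Hoxb6 probe at 96115057 gave -0.10, 0.38, 0.53 and 0.05 (mean 0.21 ± 0.29, adjusted p = 0.18 in limma) and was the less reproducible of the pair. With centring alone both were called higher, at 0.26 (limma adjusted p = 0.0112) for the probe at 96117339 and 0.28 (adjusted p = 0.0274) for the probe at 96115057. The probe at 96115057 was also called with array weights (0.32, limma adjusted p = 0.037) and without array 1 (0.32, adjusted p = 0.0403), and its ratio was 0.11 without array 3.

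The most 5′ group measured, group 9, held the highest ratio among the Hox probes tested. Hoxb9, a thoracic patterning gene, was dim, and its probe on chromosome 11 at 96092524 to 96092583 (mm8) had log2 signals of 7.43, 7.41, 7.28 and 7.43 in hypomorph pools and 7.10, 6.97, 6.58 and 6.88 in wild type pools. All hypomorph pools lay above all wild type pools. The ratios of 0.34, 0.44, 0.70 and 0.56 averaged 0.51 ± 0.16 (SD, n = 4), 1.42-fold higher (limma adjusted p = 0.00595), and 0.95 with the processed signals.

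A further Hoxb9 probe, at 96091841 to 96091900, had log2 signals of 6.72, 6.89, 6.66 and 6.96 in hypomorph pools and 6.63, 6.65, 6.42 and 6.40 in wild type pools, again without overlap. It was above background in all 4 hypomorph pools but only 2 wild type pools, so it passed the filter only through the hypomorph pools. Its ratios were 0.09, 0.24, 0.24 and 0.55, and its mean ranged from 0.10 with centring alone to 0.84 with the processed signals, so no fold is given. Its paralogues Hoxa9 (0.02 ± 0.09, adjusted p = 0.733) and Hoxd9 (0.04 ± 0.09, adjusted p = 0.522) were not called in limma. The Hoxd9 probe was above background in 3 hypomorph pools and 2 wild type pools. It too passed the filter only through the hypomorph pools, so its ratio is not read as a lack of difference.

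Among the 3′ genes, which pattern the hindbrain and neck, Hoxb2 was lower, and Hoxb3 was higher by the dimmer of its probes only. The Hoxb2 probe on chromosome 11 at 96169898 to 96169957 (mm8) had log2 signals of 13.36, 13.20, 13.25 and 13.23 in hypomorph pools and 13.49, 13.40, 13.45 and 13.42 in wild type pools. Each hypomorph pool was below every wild type pool, by a small margin. The ratios of -0.13, -0.20, -0.20 and -0.19 averaged -0.18 ± 0.03 (SD, n = 4), 1.13-fold lower (limma adjusted p = 0.0253). When every array was only centred on its median, with no correction for brightness, the ratio was 0.13 and was not called (limma adjusted p = 0.174), so the lower Hoxb2 depends on the normalisation. It was also not called with the processed signals (-0.14, limma adjusted p = 0.0942) or with its probes averaged (-0.23, adjusted p = 0.0744). Without array 2, 3 or 4 the ratio stayed between -0.18 and -0.17 and was not called, at limma adjusted p of 0.113, 0.106 and 0.0721. The other probe named Hoxb2, at 96166636 to 96166695, lies on the minus strand, opposite to the other HoxB probes, and its ratios of -0.85, -0.25, -0.09 and 0.09 spread widely (mean -0.28 ± 0.41, limma adjusted p = 0.201).

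Hoxb3 had log2 signals of 8.95, 8.60, 9.03 and 9.12 in hypomorph pools and 8.71, 8.50, 8.82 and 9.01 in wild type pools for the probe at 96161890 to 96161949. The ranges overlapped, and the hypomorph pool was higher on each array. Its ratios were 0.23, 0.10, 0.21 and 0.11 (mean 0.16 ± 0.07, SD, n = 4, 1.12-fold, limma adjusted p = 0.0452). The other Hoxb3 probe, at 96163778, was brighter, with a mean log2 brightness of 12.08 against 8.84. It had the opposite sign on 3 arrays, with -0.34, -0.28, -0.14 and 0.12 (mean -0.16 ± 0.21, limma adjusted p = 0.19). The call of the first probe was lost when any array was left out, at limma adjusted p of 0.0718, 0.113, 0.161 and 0.0837 without arrays 1 to 4. With both probes averaged the Hoxb3 ratio was 0.0029 (limma adjusted p = 0.971).

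The remaining tested genes did not pass. In HoxA these included Hoxa2 (mean -0.02), Hoxa3 with 2 probes (0.16 and 0.07) and Hoxa7 (0.10), of which the first Hoxa3 probe came closest with a limma adjusted p of 0.0556. Hoxb7 averaged 0.09 and Hoxd8 -0.10. Hoxb8 had ratios of 0.22, 0.26 and -0.72 on arrays 1, 2 and 4 (mean -0.08 ± 0.55, SD, n = 3), so array 4 alone put its mean below 0. On array 3 its spot was marked by the scanner software, and it gave 0.57 when kept.

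By cluster, HoxA had 2 probes higher and 0 lower of 10 tested, with a median ratio of 0.08. HoxB had 3 higher and 2 lower of 12, with a median of 0.06, and its lower genes Hoxb2 and Hoxb4 lie among higher or uncalled neighbours. The 1 HoxC probe tested, Hoxc4, was higher. HoxD had 0 higher and 1 lower of 3, with a median of -0.10. By paralogue group, probes higher and lower were 0 and 1 of 3 in group 2, 1 and 0 of 4 in group 3, 2 and 2 of 5 in group 4, 1 and 0 of 2 in group 5, and 2 and 0 of 4 in group 9. Groups 6, 7 and 8 had no call among 3, 2 and 2 probes. Both higher probes of group 9, also counted in HoxB, report Hoxb9. The further Hoxb9 probe, which passed the filter only through the hypomorph pools, is counted here but not used as support.

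The 9 called probes were also followed through 19 other ways of processing, which are not all independent. The processed signals and the series table gave identical values. For a gene with 1 probe tested, the brightest probe and the mean of its probes repeat the reported ratio. Hoxc4 was called higher in all 19, with ratios from 0.38 to 0.49, and Hoxd4 lower in all 19, from -0.48 to -0.35. The first Hoxb9 probe was higher in all 19, from 0.39 to 0.95. The 0.39 is the mean of both Hoxb9 probes and is not support for the first, whose own lowest ratio was 0.41, with centring alone. Hoxb4 was lower in 18 of 19, and Hoxa4 and Hoxa5 were higher in 15 of 19 each. Hoxb2 was called lower in 12 of 19, Hoxb3 higher in 7 of 18 and the second Hoxb9 probe higher in 9 of 17, where the mean of both probes is counted again.

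**Figure D4:**
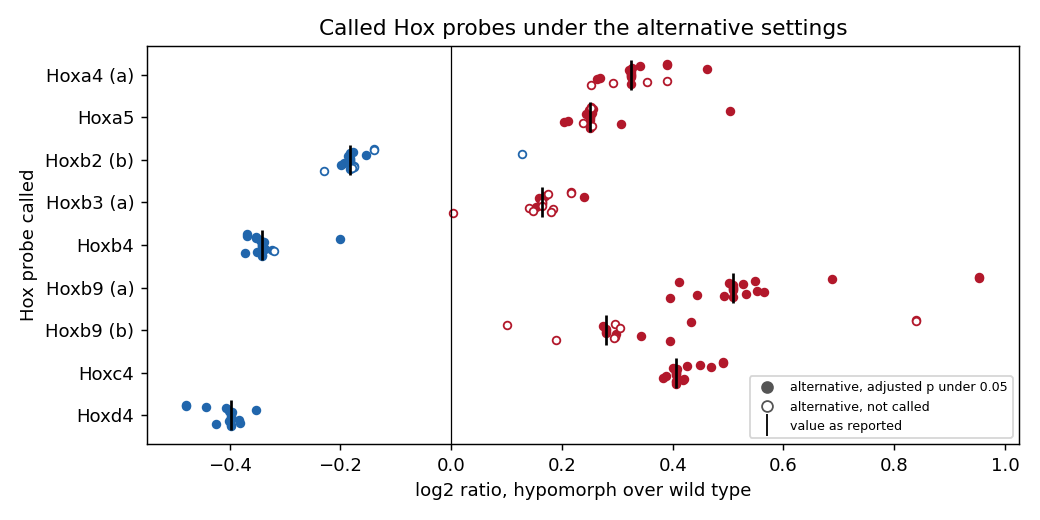
Log2 ratio of hypomorph over wild type of the 9 called Hox probes under the alternative settings (points, filled where called) with the value as reported (black bar). Hoxc4, Hoxd4 and Hoxb9 (a) are filled throughout, and the open Hoxb2 (b) point right of 0 is centring on the array median.

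Genes that work with the Hox clusters were counted by gene, each by its brightest probe, where 26.6% of all genes were called. Of the 8 cofactor genes of the Pbx, Meis and Pknox families examined, whose proteins bind DNA beside Hox proteins, 1 was higher and 1 lower. Pbx3 was higher (log2 ratio 0.17 ± 0.07, SD, n = 4, limma adjusted p = 0.0444), and Pbx2 was lower (-0.20 ± 0.06, adjusted p = 0.0262). With the probes of a gene averaged, Pbx3 was at -0.03, so its direction depends on the probe, and Pbx2 was at -0.04 (limma adjusted p = 0.555). With centring alone Pbx2 was at 0.11.

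Of 11 tested genes that set Hox expression in the embryo, 1 was higher and 4 were lower. Gli3, a mediator of hedgehog signalling, was higher (0.44 ± 0.13, SD, n = 4, limma adjusted p = 0.00634). The retinoic acid pathway, a classical activator of 3′ Hox genes, had lower genes in Aldh1a2, which makes retinoic acid (-0.33 ± 0.11, limma adjusted p = 0.0103), and Rarg, a receptor for it (-0.20 ± 0.06, adjusted p = 0.025). Both calls depended on the processing: Aldh1a2 was at -0.09 with centring alone (limma adjusted p = 0.335), and Rarg at -0.02 with its probes averaged (adjusted p = 0.724) and at -0.17 with centring (adjusted p = 0.0511). Cyp26a1, which degrades retinoic acid, is among the 4 but was above background in only 1 hypomorph pool, against 4 wild type pools. It passed the filter only through the wild type pools, so no ratio is given. Cyp26b1, of the same enzyme family, is also among the 4 and was above background in all pools. The receptor genes Rara, Rarb and Rxra were not called. Lower genes thus include those for making and for degrading retinoic acid, and no direction of the pathway is read from them. With arrays left out in turn, the number of lower genes of this list ranged from 0 to 5. The share called over all probes then ranged from 5.32% to 26.6%, against 24.9% with all arrays.

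The Polycomb group, which holds silent Hox genes in a repressed state, had 3 of 21 genes higher and 5 lower. Its methyltransferases went opposite ways: Ezh1 was lower (-0.32 ± 0.03, limma adjusted p = 0.00539) and Ezh2 higher (0.20 ± 0.04, adjusted p = 0.019). Among the subunits that read the methyl mark, Cbx7 was lower (-0.61 ± 0.28, adjusted p = 0.0124 in limma) and Cbx8 higher (0.26 ± 0.13, adjusted p = 0.0283). The trithorax list, whose members keep Hox genes active, had 2 of 13 higher, Wdr5 (0.22 ± 0.04, adjusted p = 0.0165) and Ash1l (0.17 ± 0.01, adjusted p = 0.0262), and 1 lower, Kat6b (-0.15 ± 0.05, adjusted p = 0.0459). With arrays left out in turn, 0 to 3 Polycomb genes were higher and 1 to 4 lower, and 0 to 2 trithorax genes were higher and 0 to 1 lower. Of all probes, 5.32% to 26.6% were called in these settings. With its probes averaged Ash1l was at 0.04 and was not called (limma adjusted p = 0.513).

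Of 12 tested genes that lie beside the clusters, 3 were higher and 1 lower. Next to HoxA, Hibadh was lower (-0.27 ± 0.03, limma adjusted p = 0.0077) and Skap2 higher (0.15 ± 0.02, adjusted p = 0.0381). Skap1, near HoxB, and Atf2, near HoxD, were higher (0.33 ± 0.23 and 0.21 ± 0.02, adjusted p = 0.0411 and 0.0166 in limma). Of 7 tested lung genes linked to the loss of Hox5 function in mice, Lef1, a Wnt effector, was lower (-0.48 ± 0.13, adjusted p = 0.0052) and Nkx2-1, the lung epithelial identity factor, higher (0.19 ± 0.09, adjusted p = 0.0392), while 5 were not called. With arrays left out, the neighbours gave 0 to 1 higher and 0 to 2 lower, and the Hox5-linked genes gave 0 to 1 higher and 1 lower. The calls over all probes then fell to as little as 5.32%, without array 2.

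The median log2 ratio was 0.03 for the cofactor list, 0.01 for the genes that set Hox expression, -0.01 for Polycomb, 0.05 for trithorax, 0.09 for the neighbours and 0.06 for the Hox5-linked genes, beside -0.00 for all probes. With centring on the array median alone, which raised the median of all probes to 0.10, higher and lower genes numbered 3 and 1 of the cofactors, 5 and 1 of the genes that set Hox expression, 12 and 3 of Polycomb, 8 and 0 of trithorax, 8 and 0 of the neighbours and 5 and 1 of the Hox5-linked genes. Under that setting 49.4% of all probes were called, 10997 higher and 3815 lower of 29991. The list counts are therefore not read as a property of the lists. Kat6b (0.041) and Hibadh (0.060) were above 0 with centring alone. Of the genes given with a ratio from these lists, Gli3, Ezh1 and Lef1 kept their call under every alternative run, and each of the others lost it under at least 1.

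Markers of tissues that use Hox genes or adjoin the lung were counted in the same way. The mesenchymal list gave 1 higher and 1 lower of 11 tested, and its summed signal was 214656 to 262896 in hypomorph pools and 199899 to 260901 in wild type pools, which overlapped. The endothelial list gave 1 higher and 4 lower of 8. The summed signal of its 6 genes with a value on every array was 130956 to 150598 in hypomorph pools. It was 162991 to 170724 in wild type pools, without overlap. Emcn and Tie1, with 3 values each, are not in that sum and were not called. The oesophagus and stomach list gave 3 higher and 0 lower of 7, with 7 of its 12 genes above background in all pools and 3 in none. The cartilage list gave 2 higher and 0 lower of 7, the heart list 0 and 0 of 8, the T cell list 1 and 0 of 6, and the list for limb, genital and tail buds 2 and 1 of 6. The part of these lists in the Hox differences was not tested.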

How the data were processed

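Two-colour arrays of 4 hypomorph and 4 wild type lung pools were quantified by the submitters, whose processing notes name Agilent Feature Extraction 9.5.1. Mean and background intensities, as deposited, are raw scanner values, and the processed intensities were background-subtracted and dye-normalised, per the file headers. A log10 ratio column, also deposited, gives Cy5 over Cy3 of the processed intensities and was not used. The deposited series table holds log2 values that correlated with log2 of processed Cy5 over Cy3 at 1 on each array, with medians of -0.02, -0.00, -0.05 and -0.02, so scale, direction and lack of centring were read from the values.

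From the mean and background intensities, limma 3.58.1 (R 4.3.3) applied normexp with an offset of 50 and loess with a span of 0.3 and control spots at weight 0. Spots marked by the scanner software as outliers, between 4.92% and 5.12% per array, were dropped. Repeat spots were averaged, probes above background in either channel on 3 or more arrays were kept, and their mean log2 ratio was tested against 0 with Benjamini-Hochberg adjustment. Signals per pool are after loess and Aquantile. The number of arrays limits the precision, and nothing but the labels shows the pools to be separate animals. Of 41174 probes, 24375 were matched to a current gene symbol through RefSeq accessions, whether or not the name changed, and 37 of 38 Hox genes had such a match. Probes were named if called with the same sign on all arrays or if in groups 4 to 6. Up to 4 called genes per list were named, and Cyp26b1 was added to its list. The members and lists were chosen with earlier results of these data known. Some genes are not reported here. The steps were tested on simulated data.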

Additional observations from a re-analysis of the deposited data

How the results depend on the processing

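Of the 19 alternatives, the count of higher Hox probes (6) moved by over 1.5 times in 2 settings beside left-out arrays: 11 were higher with centring on the array median, and 3 with the mean of a gene's probes. The 3 is a count over 20 genes and the 6 a count over 26 probes, so they are unlike. By the brightest probe, 4 of 20 genes were higher. Without each array in turn, 2 to 7 were higher and 1 to 3 lower (3 with all arrays). Over all probes, 816 were higher and 781 lower without array 2. Centring alone put the median of all probes at 0.10, with 10997 higher and 3815 lower calls, against 3803 and 3665. The Hox median (0.06) was 0.091 with the processed signals and with the series table, 0.11 with centring, which is 0.01 above the median of all probes there, 0.013 with no filter on dim probes, and 0.033 with the brightest probe of each gene or the mean of a gene's probes. Directions turned with centring for Hoxa6 (-0.12), Hoxb2 (0.13), Pbx2 (0.11), Kat6b (0.041) and Hibadh (0.060), and with the mean of a gene's probes for Pbx3 (-0.033). With arrays left out, Hoxa6 ranged from -0.016 to 0.027 and was -0.0042 without array 2, and Hoxb5 ranged from -0.022 to 0.075. The cause was not tested. Each array pairs 1 hypomorph pool with 1 wild type pool, so the ratio is the paired value; separate channels with the array as a replicate block gave 6 higher and 3 lower Hox probes, not counting Hoxb3 among them (limma adjusted p = 0.0867). Hox genes of groups 10 to 13 were limited by signal over background.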
